A study of Homo sapiens with 6 samples.

Results

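Claudins are the membrane proteins that set what can pass between epithelial cells, and 10 genes of the tight junction were followed here: 7 claudins (CLDN1, CLDN2, CLDN3, CLDN4, CLDN7, CLDN10 and CLDN12), occludin (OCLN), the scaffold TJP1 and the adhesion molecule F11R. They were chosen by symbol from the 31831 genes of the count table. RNA-seq was made from HK-2 cells, an established and immortalised line of human renal proximal tubule epithelium, kept in high glucose (30 mM for 72 h). The control group (HG-NC, 3 libraries) received the empty vector, and the other group (HG-OE, 3 libraries) received a construct overexpressing hnRNP-F. Both were given by lentivirus according to the methods, so that high glucose and viral transfer were shared by all 6 libraries. The construct is the only difference that the labels give. The libraries differed further, in transcripts of other cell types and in shifts shared by neighbouring genes, both given below. The part of these differences in the changes was not tested. The study names 3 biological replicates per group, its methods speak of parallel wells for each group, and it gives no separate clones. The p-values measure the spread between these libraries, and whether this covers separate transductions is not stated. The human gene HNRNPF rose from 311 ± 7.23 to 435 ± 14.9 CPM (counts scaled to library size by TMM, mean ± SD, n = 3 per group), a log2 fold change of 0.48 (SE 0.0388, adjusted p = 2.80e-07). The methods give the same gene ID for the constructs used in HK-2 cells and in mouse podocytes, and do not state the species of the insert. Whether these counts include transcripts of the construct is not known.

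Tight junctions seal the space between epithelial cells near their apical face and let chosen ions and water through. Claudins form the strands of the junction. Some of them tighten it, among them CLDN1, CLDN3, CLDN4 and CLDN7, while CLDN2 and CLDN10 form pores for ions. Occludin and the junctional adhesion molecules, of which F11R encodes JAM-A, lie in the same membrane, and TJP1 ties these proteins to actin. In the kidney, the proximal tubule is leaky and known for CLDN2 and CLDN10, and CLDN3, CLDN4 and CLDN7 are best known from the distal nephron and the collecting duct.

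The sequences ahead of the start sites of 3 claudin genes are given here because these genes hold the largest fall and both rises among the genes of the 10 that were tested. Each is the stretch of 250 bases before the RefSeq start on GRCh38.p14, written 5′ to 3′ on the gene's strand, with every GC box (GGGCGG, or CCGCCC on the other strand) in capitals.
CLDN1, chr3:190322447-190322696, minus strand: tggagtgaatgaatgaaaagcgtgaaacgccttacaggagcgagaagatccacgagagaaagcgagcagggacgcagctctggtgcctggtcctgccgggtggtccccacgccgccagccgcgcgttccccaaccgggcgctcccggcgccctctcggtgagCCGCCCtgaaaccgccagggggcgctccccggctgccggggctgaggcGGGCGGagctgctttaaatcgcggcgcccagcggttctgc
CLDN2, the upstream of 2 starts, chrX:106899914-106900163, plus strand: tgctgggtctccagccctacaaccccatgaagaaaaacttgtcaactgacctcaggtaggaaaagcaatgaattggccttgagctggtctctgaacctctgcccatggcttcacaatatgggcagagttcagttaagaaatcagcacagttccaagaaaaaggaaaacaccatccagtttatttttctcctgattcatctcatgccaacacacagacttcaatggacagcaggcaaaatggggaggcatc
CLDN4, chr7:73830746-73830995, plus strand: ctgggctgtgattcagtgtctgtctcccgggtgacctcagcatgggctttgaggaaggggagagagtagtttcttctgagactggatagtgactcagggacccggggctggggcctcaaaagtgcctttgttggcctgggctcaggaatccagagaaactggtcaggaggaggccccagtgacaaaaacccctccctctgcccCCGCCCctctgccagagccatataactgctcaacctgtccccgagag
In CLDN1 the GC boxes begin 88 and 40 bases before the start, and in CLDN4 the box begins 47 bases before it. The CLDN2 stretch held no GC box. GC content was 68.8% in CLDN1, 58.8% in CLDN4 and 46.0% in CLDN2. RefSeq gave 16 starts for 9 of the 10 genes, with no entry for F11R. A GC box lay ahead of 9 of these 16 starts, in 7 of the 9 genes, while 42.6% of 35116 starts in the RefSeq table have it in a stretch of this length. The E-box searched for was CACCTG on either strand, the letters that SNAI and ZEB repressors bind, and it was found ahead of 4 of the 16 starts, in CLDN7, OCLN and TJP1, against 17.5% of all starts. The TATA box, searched for as TATAAA on either strand, was found ahead of none of them, against 10.7%. No match overlapped another in these stretches, and a match is a description of the sequence alone.

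Of the 10 genes, 8 passed the filter on low counts. CLDN2 and CLDN4 rose, and CLDN1, CLDN12, TJP1 and F11R fell, at an adjusted p under 0.05. Unless another setting is named, each adjusted p is from the quasi-likelihood test of edgeR, adjusted over 17142 genes. Fits without a library or a filter were adjusted over the genes tested in them. With the median of neighbouring genes removed, a t test of the remaining change was used, adjusted over 17104 genes. It treats that median as fixed. Ranges over the alternatives also hold values from DESeq2 and limma. CLDN3 and OCLN did not pass the test, and CLDN7 and CLDN10 were too low to be tested. Over all genes tested, 25.9% were called higher and 25.9% lower, and the 2 higher and 4 lower of the 8 genes tested stand beside these shares. With the study's further threshold of a 2-fold change, CLDN2 was called higher and no gene of the 10 lower, against 3.69% higher and 2.13% lower over all genes tested. The libraries of the groups did not overlap in CPM for 6 of the 8 genes tested (CLDN7 and CLDN10 overlapped), against 59.0% of all genes tested.

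**Figure D1:**
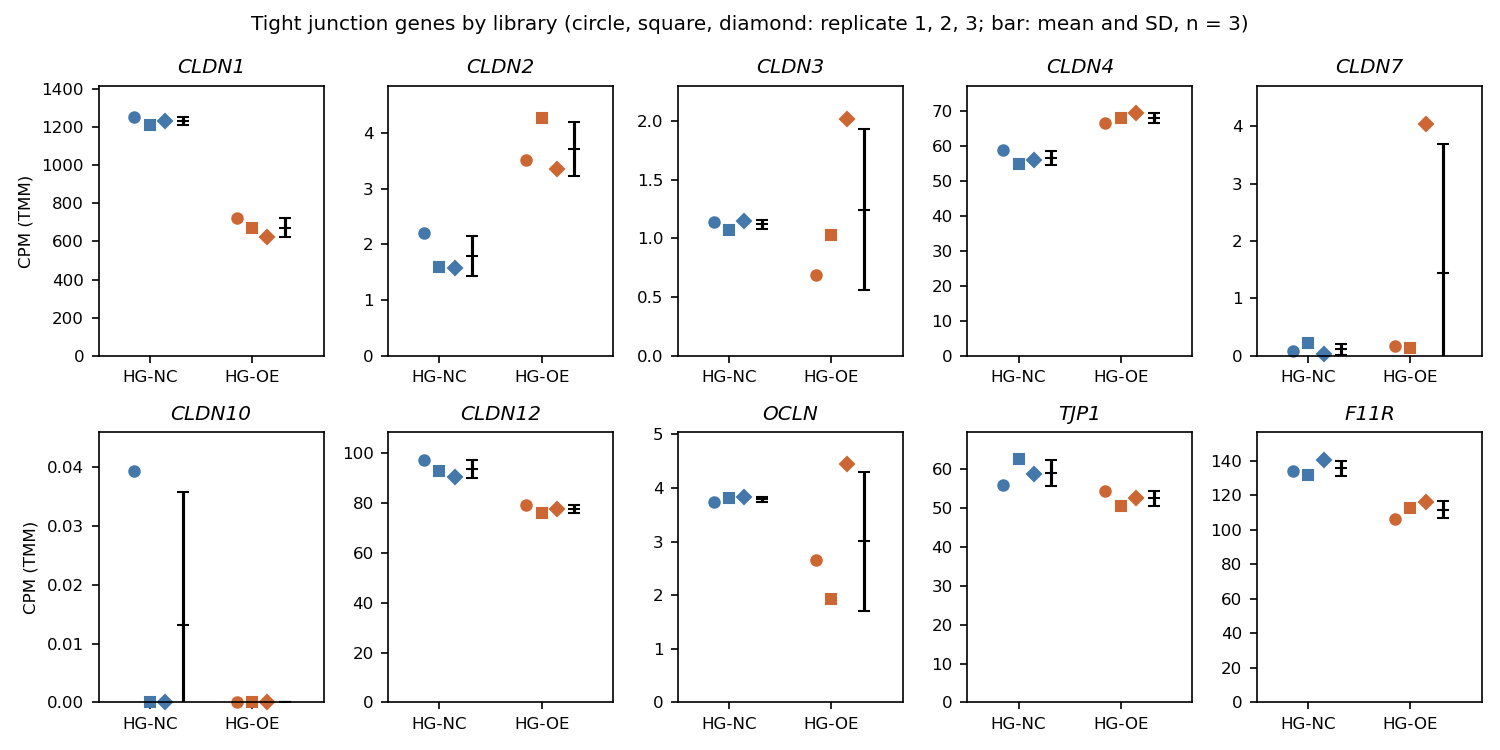
TMM-scaled CPM (linear axes from 0) of the 10 genes in each library, with circle, square and diamond for replicates 1, 2 and 3 and bars for the mean and SD (n = 3; SD bars that reach below 0 are cut at the axis). CLDN1 lies at 1211 to 1254 CPM in HG-NC and 625 to 724 CPM in HG-OE, while the HG-OE bars of CLDN3, CLDN7 and OCLN are wide, with replicate 3 far above the others.

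Totals were 25507595 to 27888212 counts in HG-NC and 28977783 to 29444841 in HG-OE, and the limit that a count of 0 allows (3 counts) was 0.102 to 0.118 CPM, for counting error only. HG-OE replicate 3 stood apart from the rest and carried transcripts of other cell types. Of 22 squamous epithelium markers in the table, 20 were highest there, with a summed level of 83.0 CPM against 9.89 to 12.8 CPM in the other libraries. KRT5, a basal keratin, was at 0 in the other libraries and at 11.4 CPM there. Hepatocyte markers other than SERPINA1 summed to 428 CPM there against 2.66 to 15.8 CPM, with albumin (ALB) at 149 CPM against at most 2.79 CPM. Of 18 hepatocyte markers, 13 were highest in that library, and ITIH1 was at 0 there. Of 16 glandular epithelium markers, 11 were highest in it, although their sum of 528 CPM lay within the range of the others, 435 to 705 CPM. Distal nephron markers summed to 28.9 CPM against 7.98 to 9.62 CPM, of which AQP3 alone gave 17.0 CPM. Endothelial and leukocyte markers summed to 18.7 CPM against 6.26 to 7.66 CPM, of which CD14 gave 14.6 CPM. HG-NC replicate 3 also had more hepatocyte transcripts than the other control libraries, with 15.8 CPM in sum against 3.07 and 2.66 CPM and 78 counts of ALB against 4 and 1. As for the labelled cell type, the proximal tubule markers summed to 55.7 to 79.5 CPM over all libraries. Of the 13 in the table, 7 were also highest in HG-OE replicate 3, although their sum there, 77.9 CPM, lay within the range of the others. MIOX, GATM, PDZK1, MME and SLC5A2 were counted in each of them, while LRP2 and SLC5A1 were at 0 outside HG-OE replicate 3, and AQP1 was at most 0.25 CPM in every library.

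CLDN1 was by far the most abundant of the 10 genes and showed the largest fall. CLDN1 (ENSG00000163347.6, chromosome 3, 190305707 to 190322446, minus strand) encodes a sealing claudin without which the skin loses its water barrier. The HG-NC libraries held 31895, 32786 and 34392 counts (replicates 1 to 3, the order used throughout) and the HG-OE libraries 21014, 19473 and 18305. No HG-OE library came near an HG-NC library (p = 0.1 in an exact permutation test, two-sided, which cannot go lower with 3 against 3). The mean level fell from 1232 ± 21.6 to 673 ± 49.7 CPM, a log2 fold change of -0.87 (SE 0.0469, adjusted p = 8.18e-09). In linear terms CLDN1 fell by 45.4%. Over its 89 well-counted neighbours within 10 Mb, the median change was -0.10 on the log2 scale, and with that median removed CLDN1 stood at -0.77. Leaving out each library in turn gave -0.93 to -0.82.

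CLDN12, a claudin tied to calcium transport in the gut, fell by 17.1%. Its gene (ENSG00000157224.16, chromosome 7, 90383721 to 90513402, plus strand) was counted 2479, 2517 and 2534 times in HG-NC and 2299, 2220 and 2270 times in HG-OE. After scaling for library size the groups did not overlap, at 90.7 to 97.5 CPM in HG-NC and 76.2 to 79.2 CPM in HG-OE. This is a log2 fold change of -0.27 (SE 0.0434, adjusted p = 1.43e-04), with a neighbours' median of 0.0031. In GENCODE 44, 7.92% of its exonic bases are shared with PTTG1IP2, 5.53% with a long noncoding RNA, 5.17% with GTPBP10 and 3% with CDK14, all on the same strand, and reads there could be assigned to either of the genes.

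CLDN4 rose slightly in every HG-OE library. CLDN4 (ENSG00000189143.10, chromosome 7, 73799542 to 73832690, plus strand) encodes a claudin of the distal nephron that limits sodium passage, and 1496, 1486 and 1568 counts were found in HG-NC against 1938, 1981 and 2035 in HG-OE. The HG-OE libraries, at 66.8 to 69.5 CPM, all lay above the HG-NC libraries, at 54.9 to 58.8 CPM. This was a rise of 20.3%, a log2 fold change of 0.27 (SE 0.0463, adjusted p = 2.76e-04), and 0.19 once the neighbours' median of 0.076 was removed. HG-OE replicate 3 had 34.2% of the HG-OE counts of CLDN4, and without that library the change was 0.25.

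CLDN3 lies near CLDN4 on the same chromosome and was counted far less often. For CLDN3 (ENSG00000165215.6, chromosome 7, 73768997 to 73770270, minus strand), a sealing claudin, counts were 29, 29 and 32 in HG-NC against 20, 30 and 59 in HG-OE. HG-OE replicates 1 and 2 lay below every HG-NC library in CPM and replicate 3 above them, so that the groups overlapped. The log2 fold change was 0.15 with a 95% interval of -0.58 to 0.89 (adjusted p = 0.731), an interval that holds both falls and rises. Without HG-OE replicate 3, the value was -0.38 (adjusted p = 0.342, within a range of 0.266 to 0.991 over the alternatives).

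CLDN7 was close to the counting limit in 5 libraries and high in the sixth. CLDN7 (ENSG00000181885.18, chromosome 17, 7259903 to 7263983, minus strand), a claudin of the collecting duct, had 2, 6 and 1 counts in HG-NC and 5, 4 and 118 in HG-OE. HG-OE replicate 3 held 92.9% of the HG-OE counts, at 4.03 CPM against at most 0.222 CPM in any other library. The same library held the squamous, glandular and hepatocyte transcripts given above, and their part in the CLDN7 level was not tested. The filter removed CLDN7, and no fold change is given for it.

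CLDN2 had the largest rise of the 8 genes tested, from a low level. CLDN2 (ENSG00000165376.12, chromosome X, 106900164 to 106930861, plus strand), the cation and water pore of the proximal tubule, had 56, 43 and 44 counts in HG-NC and 102, 124 and 98 in HG-OE. Every HG-OE library was above every HG-NC library. The level went from 1.79 ± 0.359 to 3.71 ± 0.486 CPM, a log2 fold change of 1.05 (SE 0.193, 95% interval 0.64 to 1.47, adjusted p = 4.33e-04), or 2.07-fold. It lay on the 2-fold line: leaving out HG-NC replicate 2, HG-NC replicate 3 or HG-OE replicate 2 brought it below, with 0.94 as the lowest and 1.23 as the highest value over all libraries left out. Without HG-OE replicate 3 it was 1.12. RIPPLY1 on the other strand covers 9.99% of its exonic bases in GENCODE 44 and had 33 counts in all. CLDN10 (ENSG00000134873.10, chromosome 13, 95433604 to 95579759, plus strand), the other pore-forming claudin of the proximal tubule, had 1 count in HG-NC replicate 1 and 0 in the other 5 libraries, so that no difference was detectable at this depth. DZIP1 on the other strand covers 46% of the exonic bases of CLDN10 in GENCODE 44 and had 6498 counts in all. With the strand setting of the counting not given, whether this lowered the CLDN10 counts is not known.

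**Figure D2:**
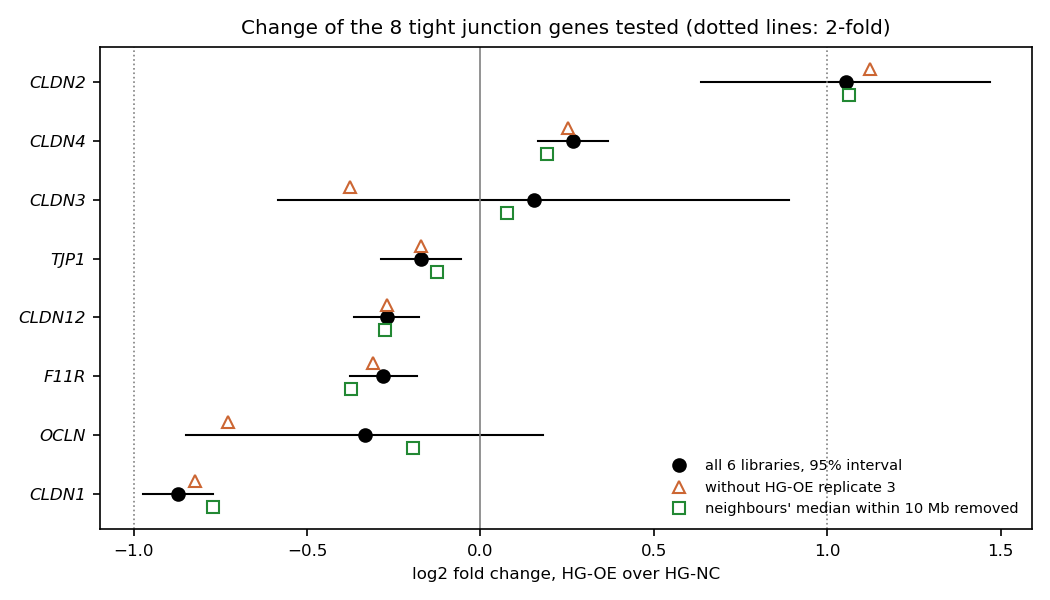
Log2 fold change of HG-OE over HG-NC for the 8 genes tested, with 95% intervals (black), the value without HG-OE replicate 3 (triangles) and the value with the median of neighbouring genes within 10 Mb removed (squares). CLDN1 at -0.87 and CLDN2 at 1.05 lie farthest from 0, and the triangles of CLDN3 (-0.38) and OCLN (-0.73) lie far from their black points.

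Occludin (OCLN, ENSG00000197822.12, chromosome 5, 69492292 to 69558104, plus strand) was counted 95, 103 and 107 times in HG-NC and 77, 56 and 130 times in HG-OE. HG-OE replicates 1 and 2, at 2.65 and 1.92 CPM, lay below the HG-NC libraries at 3.74 to 3.83 CPM, and HG-OE replicate 3 lay above them at 4.44 CPM. With all libraries the log2 fold change was -0.33 (95% interval -0.85 to 0.18, adjusted p = 0.263), which did not pass the test. Without HG-OE replicate 3 it was -0.73 and passed (adjusted p = 7.51e-04, within a range of 7.51e-04 to 0.745 over the alternatives). The marker transcripts of other cell types in that library stand beside this value as beside those of CLDN3 and CLDN7, and their part was not tested. The gene has a near copy, OCLNP1, on the same chromosome, and reads that fit both would not have been counted as unique.

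F11R, whose product JAM-A holds neighbouring cells together at the junction, fell in HG-OE. F11R (ENSG00000158769.18, chromosome 1, 160995211 to 161021343, minus strand) had 3413, 3569 and 3922 counts in HG-NC against 3078, 3274 and 3400 in HG-OE. The groups did not overlap in CPM, at 132 to 140 in HG-NC against 106 to 116 in HG-OE. The fall of 17.7% corresponded to a log2 fold change of -0.28 (SE 0.0447, adjusted p = 1.37e-04), and -0.37 with the neighbours' median of 0.093 removed. A second gene model on the same strand shares 36.6% of its exonic bases but had 48 counts in all.

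TJP1 encodes the scaffold that binds claudin tails and actin. For TJP1 (ENSG00000104067.17, chromosome 15, 29699367 to 29968915, minus strand), counts were 1422, 1693 and 1644 in HG-NC and 1577, 1475 and 1538 in HG-OE. In CPM the groups came close, at 55.9 to 62.5 in HG-NC and 50.7 to 54.3 in HG-OE, without overlap. The log2 fold change of -0.17 (SE 0.0533, adjusted p = 0.0156) was the smallest of those that passed. It no longer passed without HG-NC replicate 2 (adjusted p = 0.0893), without HG-OE replicate 2 (0.0640) or with the neighbours' median removed (0.0679), in a range of 0.0072 to 0.0893 over the alternatives.

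Levels of different genes were compared per length, as FPKM. In HG-NC the order was CLDN1 at 304 ± 5.20 FPKM, F11R at 23.9 ± 0.857, CLDN12 at 12.5 ± 0.427, CLDN4 at 10.8 ± 0.368, TJP1 at 4.67 ± 0.265, CLDN3 at 0.787 ± 0.0321, CLDN2 at 0.47 ± 0.0954, OCLN at 0.303 ± 0.0058, CLDN7 at 0.04 ± 0.0361 and CLDN10 at 0.0033 ± 0.0058. Of these neighbours, only the libraries of CLDN7 and CLDN10 overlapped. In HG-OE, CLDN1 stayed first at 164 ± 12.8 FPKM and F11R second at 19.5 ± 0.816, while CLDN4 (12.8 ± 0.227) stood above CLDN12 (10.2 ± 0.261). CLDN2 (0.963 ± 0.121), CLDN3 (0.863 ± 0.479), CLDN7 (0.513 ± 0.794) and OCLN (0.237 ± 0.103) followed TJP1 (4.11 ± 0.170), and each of these 4 overlapped with the next among them.

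Claudin transcripts were dominated by CLDN1 and CLDN11 in both groups. The summed FPKM of the 17 claudins in the table fell from 471 ± 8.87 in HG-NC to 280 ± 14.6 in HG-OE, with every HG-OE library (269 to 296) below every HG-NC library (463 to 480). CLDN1 made up 64.5% ± 0.386 of that sum in HG-NC against 58.6% ± 1.68 in HG-OE. The share of CLDN4 went from 2.29% ± 0.0350 to 4.59% ± 0.303 and that of CLDN2 from 0.0996% ± 0.0184 to 0.345% ± 0.0489. CLDN12 fell in level but had a larger share of the smaller sum, 3.66% ± 0.128 against 2.65% ± 0.0587. Within a library, where scaling plays no part, CLDN1 stood 27.6 to 28.6 times above CLDN4 in HG-NC and 11.7 to 14.0 times in HG-OE. Against CLDN2 it stood 532 to 743 times higher in HG-NC and 147 to 193 times in HG-OE. These shares come from the same values as the changes above and are given as a description.

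**Figure D3:**
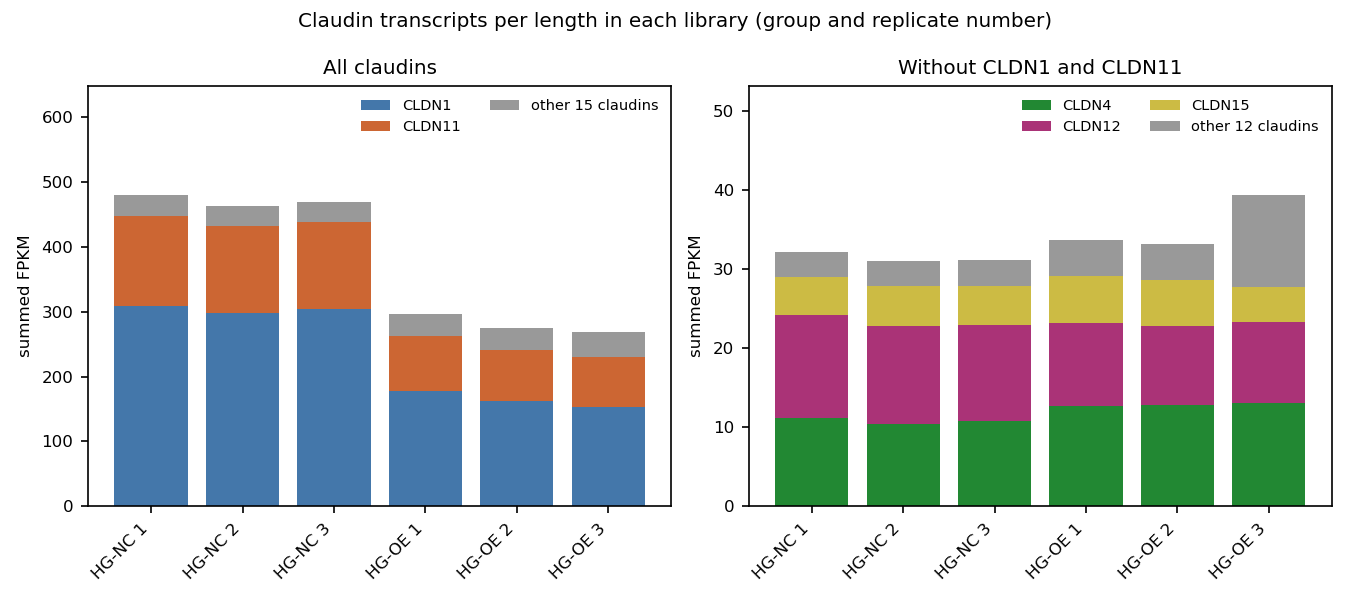
Summed FPKM of the 17 claudins per library (left) and of the 15 claudins other than CLDN1 and CLDN11 (right), as stacked bars from 0. The left bars fall from 463 to 480 in HG-NC to 269 to 296 in HG-OE. The right bars lie at 31.0 to 32.1 in HG-NC and at 33.2 to 39.4 in HG-OE, with the tallest in HG-OE replicate 3.

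The other genes of the junction were taken as 4 lists with 72 names in all, of which 56 were tested. Of these, 14 rose and 14 fell, beside the 25.9% in each direction over all genes, and 28 did not pass. Among other claudins, 5 of 17 were tested. CLDN11, a claudin of myelin and of Sertoli cells that lies on chromosome 3 like CLDN1, was the most counted and fell from 654 ± 19.4 to 393 ± 18.7 CPM (log2 fold change -0.74, adjusted p = 1.28e-08), and stood at -0.35 with its neighbours' median of -0.39 removed. CLDN23, a claudin of the gut lining, rose from 0.333 ± 0.142 to 1.98 ± 0.180 CPM (log2 fold change 2.55, adjusted p = 1.29e-05), and by 2.47 without HG-OE replicate 3. CLDN6, known from embryonic epithelium, was called higher at a log2 fold change of 3.96 (adjusted p = 6.81e-03) with 10.2 CPM in HG-OE replicate 3 and at most 0.550 CPM elsewhere, and did not pass without that library (1.06, adjusted p = 0.0792). CLDN15 and CLDN16, at 0.16 and 0.14, did not pass, and CLDN15 passed without HG-OE replicate 3 (0.28, adjusted p = 0.0030). CLDN23 had 5, 13 and 9 counts in HG-NC and 55, 54 and 64 in HG-OE. CLDN6 had 9, 7 and 3 counts in HG-NC and 13, 16 and 300 in HG-OE. Both genes passed the low-count filter only with their HG-OE libraries, where they were high, and their calls are given as a description. The list's median of 0.16 over 5 genes stood beside 0.011 over all genes.

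Of the 12 other membrane proteins of the junction, 10 were tested, 4 fell and 0 rose by edgeR (median log2 fold change -0.28). Beside this stand 25.9% in each direction and a median of 0.011 over all genes. At an unadjusted p under 0.05, 1 of them was higher, and DESeq2 called 0 higher. ESAM, an adhesion molecule best known from endothelium, fell from 13.5 ± 0.747 to 6.54 ± 0.0663 CPM (log2 fold change -1.04, adjusted p = 8.23e-07). JAM2, a relative of F11R, fell by 0.52 on the log2 scale (adjusted p = 8.02e-05), or stood at -0.24 with its neighbours' median of -0.28 removed, and CXADR and ILDR2 fell by 0.28 and 0.43. With its neighbours' median of -0.41 removed, CXADR stood at 0.13 and no longer passed. BVES, named after its values were seen, was higher in every HG-OE library but did not pass (0.17, adjusted p = 0.0799). With its neighbours' median of -0.29 removed, BVES stood at 0.46 and passed (adjusted p = 3.10e-04). JAM3, the most counted, had a value of -0.02 and did not pass. LSR, at 26.6 ± 2.52 against 20.9 ± 7.58 CPM, did not pass with all libraries (-0.34, adjusted p = 0.114) and passed without HG-OE replicate 3 (-0.68, adjusted p = 7.59e-10), as OCLN did; it was named after its values were seen.

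Of the 22 scaffold and polarity genes, 21 were tested, 3 rose and 3 fell (median -0.02), beside 25.9% in each direction over all genes. AMOTL1, an angiomotin that binds actin and YAP, rose by 0.66 (adjusted p = 3.06e-05), and MAGI1, a junctional scaffold, by 0.50, which no longer passed with its neighbours' median of 0.30 removed (0.20, adjusted p = 0.0741). MPP5, which joins the Crumbs polarity complex, fell by 0.42 on the log2 scale (adjusted p = 8.91e-05). AMOTL2, the most counted, had a value of -0.14 (adjusted p = 0.0516). Of 20 signalling and trafficking genes tested, 9 rose and 6 fell (median 0.092), beside 25.9% in each direction over all genes. RHOA, the small GTPase that drives actin contraction, rose by 0.61 (adjusted p = 1.17e-08) and by 0.097 with its neighbours' median of 0.51 removed. The actin-binding CTTN rose by 0.41, and CDC42, a GTPase of polarity, and ROCK2, the kinase downstream of RHOA, fell by 0.40 and 0.44 on the log2 scale. With the neighbours' medians removed, CTTN stood at 0.21, CDC42 at -0.21 and ROCK2 at -0.16, and all passed.

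**Figure D4:**
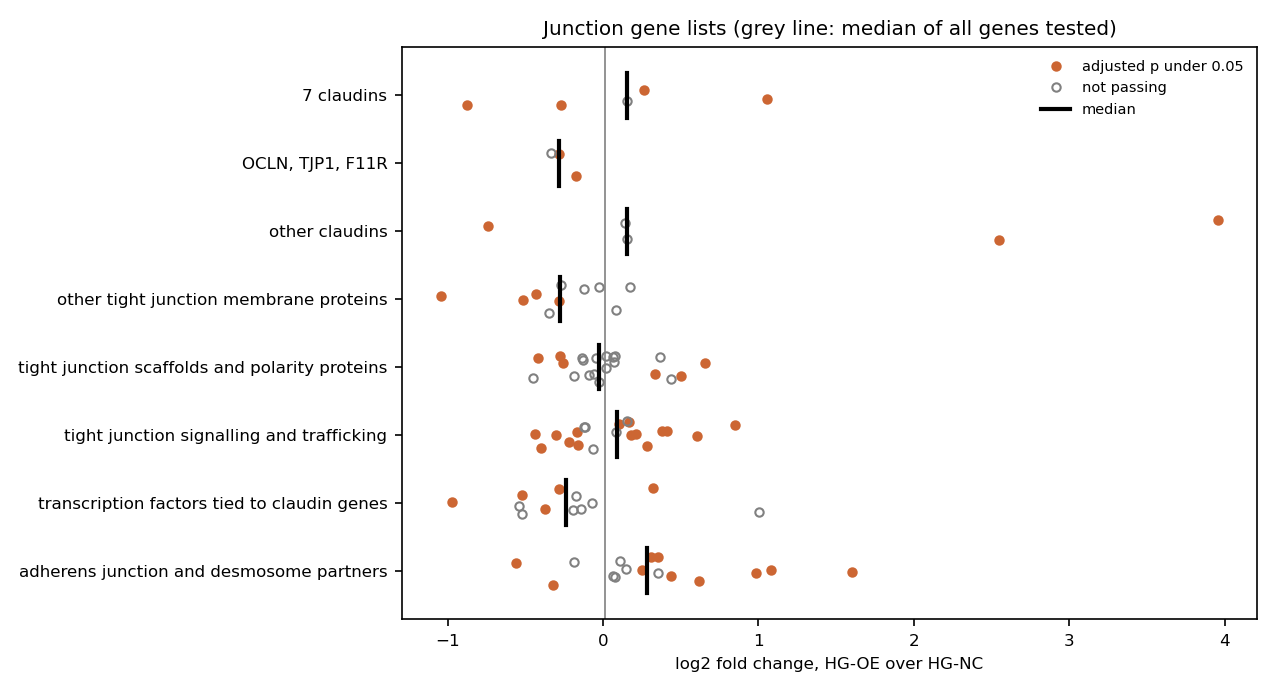
Log2 fold change of HG-OE over HG-NC for each tested gene of the lists, filled where the adjusted p was under 0.05, with each list's median as a black bar and the median of all genes tested (0.011) as a grey line. The points of most lists lie on both sides of the line, and the farthest to the right are CLDN6 at 3.96 and CLDN23 at 2.55.

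A list of 20 regulators tied to claudin genes held transcription factors and the splicing regulators ESRP1 and ESRP2. Of these 20, 12 were tested, 1 rose and 4 fell, beside 25.9% in each direction over all genes. Without HG-OE replicate 3, GRHL1, OVOL2, ESRP1 and ESRP2 also passed as lower. That fit called more of the other tight junction genes too, 17 higher and 18 lower against 14 and 14 with all libraries. The share over all genes in that fit is not given here, so the added calls are a description only. ZEB2, a repressor that binds the E-box, fell from 39.6 ± 1.80 to 20.2 ± 0.835 CPM (log2 fold change -0.97, adjusted p = 2.95e-08), and stood at -0.62 with its neighbours' median removed. ELF3, an epithelial activator and the most counted of the list, fell by 0.52 (adjusted p = 1.40e-06) and KLF4 by 0.37 on the log2 scale, while SNAI1, another E-box repressor, rose by 0.32 (adjusted p = 0.0154), and no longer passed with its neighbours' median removed (0.20, adjusted p = 0.120). SNAI2, a relative of SNAI1 named after its values were seen, fell by 0.28 on the log2 scale (adjusted p = 0.0011). With its neighbours' median removed it stood at -0.31 and passed. HNF4A, GRHL2, OVOL1 and CDX2 were at 0 outside HG-OE replicate 3, where HNF4A stood at 11.03 CPM.

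Among 18 genes of adherens junctions and desmosomes, 16 were tested, 8 rose and 2 fell (median 0.28), beside 25.9% in each direction and a median of 0.011 over all genes. Desmoplakin (DSP), which ties desmosomes to keratin, rose from 60.0 ± 3.23 to 127 ± 2.60 CPM (log2 fold change 1.08, adjusted p = 1.03e-09), and CDH16, the kidney cadherin, by 0.61 (adjusted p = 7.45e-06). The catenin CTNNA1, the most counted of the list, rose by 0.31, which no longer passed with its neighbours' median of 0.28 removed (0.034). CTNND1, which steadies cadherins, was called higher by 0.99, but a second gene model shares 39.1% of its exonic bases and holds 14282 counts, so that its level is uncertain. EPCAM, which binds and steadies CLDN1 and CLDN7 at the membrane, fell from 106 ± 4.97 to 71.98 ± 6.44 CPM (log2 fold change -0.56, adjusted p = 3.92e-06), and stood at -0.25 with its neighbours' median of -0.31 removed. PKP3, a desmosome plaque protein, was called higher by 1.60 with 25.9 CPM in HG-OE replicate 3 and at most 5.69 CPM elsewhere. Without that library PKP3 stood at 0.40 and still passed (adjusted p = 0.0201). CDH1, the cadherin of most epithelia, was removed by the filter, with 13.1 CPM in HG-OE replicate 3 and at most 0.344 CPM in the other libraries.

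**Figure D5:**
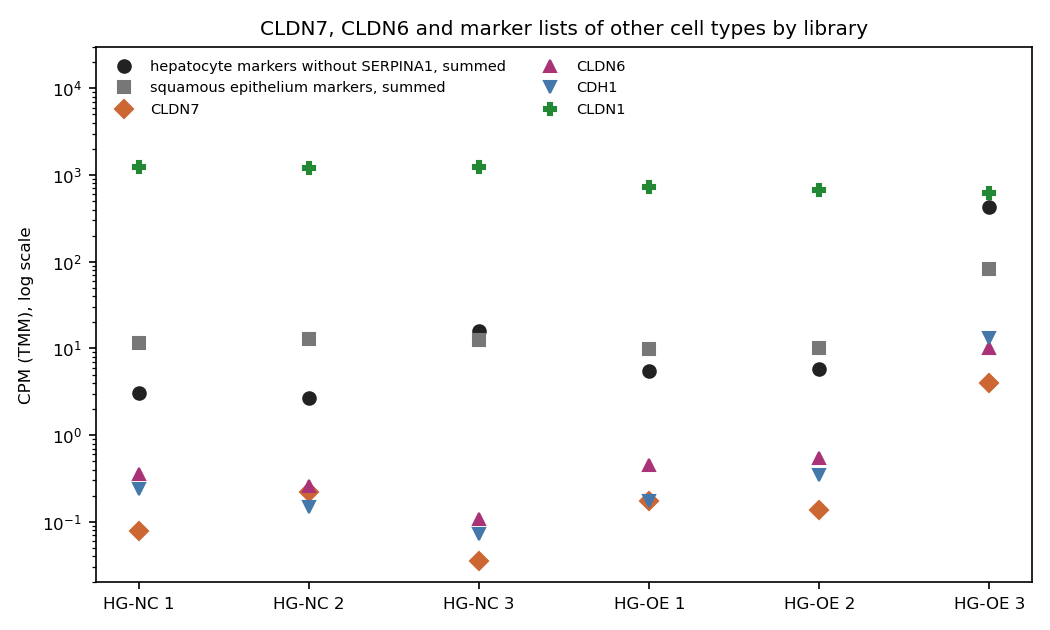
CPM per library (log axis) of CLDN7, CLDN6, CDH1 and CLDN1 and of the summed hepatocyte markers (without SERPINA1) and squamous epithelium markers. All but CLDN1 are highest in HG-OE replicate 3, where CLDN7 reaches 4.03 CPM, while CLDN1 is lowest there at 625 CPM.

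Among proximal tubule markers, 8 of 15 were tested, 4 rose and 0 fell by edgeR, beside 25.9% in each direction over all genes, and 0 were lower at an unadjusted p under 0.05 or by DESeq2. MME, a brush border peptidase, rose from 4.26 ± 0.820 to 8.64 ± 0.436 CPM (log2 fold change 1.02, adjusted p = 3.49e-05), and by 0.99 without HG-OE replicate 3. GATM, an enzyme of creatine synthesis, rose by 0.29 and no longer passed without that library (0.22, adjusted p = 0.0577), which left 3 of the list higher. The brush border scaffold PDZK1 rose by 0.84 and the oxygenase MIOX, the most counted, by 0.38, which no longer passed with its neighbours' median removed (0.072). As in all bulk samples, fewer cells of a kind and less RNA per cell cannot be told apart in any of these levels.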

How the data were processed

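RNA-seq libraries of HK-2 cells in high glucose (3 HG-NC and 3 HG-OE) were grouped by their labels. Per the study's methods, the authors used HISAT2 on trimmed reads, with GRCh38 as the genome, and kept uniquely mapped reads for counting per gene. The deposited counts are whole numbers without normalization, and the deposited FPKM values were computed by the authors from these reads and rounded. The annotation and the strand setting of the counting are not given in the sources used here. The methods name ComBat_seq without naming batches, and whether it entered these counts is not stated. No batch was fitted.

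The count model was fitted with edgeR 4.0.16 under R 4.3.3 (TMM, the default low-count filter, which kept 17142 of 31831 genes, quasi-likelihood test, Benjamini-Hochberg adjustment over all genes tested). Standard errors come from the fit. Exact permutation tests cannot go below p = 0.1 with 3 against 3. Totals of 25507595 to 29444841 counts set the precision, and intervals and limits for counts of 0 cover counting error only. Alternatives were DESeq2 1.42.0, other filters, each library left out, the replicate block, limma 3.58.1 on log2 FPKM with pseudocounts of 1 and 0.1, which understate the change of low genes, and removal of the median of genes with a mean of at least 100 counts within 10 Mb. Positions and overlaps come from GENCODE 44, which matched 31742 gene IDs. Steps were tested on simulated data.

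The 10 genes and all lists were chosen with earlier results of these data known. Of each list, the text names genes called with a 2-fold change, the most counted gene and up to 3 further genes with an adjusted p under 0.05 and a mean of at least 100 counts. Marker lists of other cell types are described by sums and counts, and the markers named from them were chosen after their values were seen. A gene of the scaffold list is not reported here.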

Additional observations from a re-analysis of the deposited data

How the results depend on the processing

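Of the 10 genes, 2 were called higher and 4 lower. Leaving out each library in turn kept 2 higher and gave 3 to 5 lower, and no gene was called 2-fold lower in any of these fits. The 2-fold call of CLDN2 makes a count of 1, which was 0 to 1 over the libraries left out, 2 with no low-count filter (with CLDN7 added, adjusted p = 0.0018), and 0 with limma on log2(FPKM + 1), on log2(FPKM + 0.1) or without a filter, scales that shrink low genes by construction. Of the other tight junction genes, 2 were called 2-fold higher, CLDN6 and CLDN23, which passed the low-count filter only with their HG-OE libraries. This count was 0 with at least 10 counts in every library, where the low genes are not tested, 1 with the Wald test of DESeq2, 1 to 2 over the libraries left out, 0 with limma on log2(FPKM + 1), with or without a filter, and 1 on log2(FPKM + 0.1). The 1 gene called 2-fold lower, ESAM, became 0 without HG-NC replicate 1 (0 to 1 over the libraries left out) and 0 with limma on log2(FPKM + 1), with or without a filter. The 14 genes called lower became 9 with limma without a filter. Where no construction is named, the cause was not tested.

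CLDN3 turned from 0.15 to -0.38 without HG-OE replicate 3 (-0.38 to 0.44 over the libraries left out), OCLN passed at -0.73 without it, and TJP1 no longer passed at -0.13 without HG-NC replicate 2, -0.15 without HG-OE replicate 2, -0.15 with limma without a filter and -0.13 with the neighbours' median removed. The other 114 values of single genes kept their direction and their side of the threshold.

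Same-numbered libraries had correlations of -0.027, 0.030 and -0.00099 between their deviations from the group means. With 3 libraries per group, these values cannot show whether same-numbered libraries were prepared together. With the replicate block, 2 of the 10 genes were called higher, 4 lower, 1 at 2-fold higher and 0 at 2-fold lower, and of the other tight junction genes 15 higher, 15 lower, 2 at 2-fold higher and 1 at 2-fold lower. Under the block CLDN1 stood at -0.88, CLDN2 at 1.06, CLDN3 at 0.075, CLDN4 at 0.27, CLDN12 at -0.27, OCLN at -0.39, TJP1 at -0.17 and F11R at -0.28, and no call among them changed.

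Depth limits CLDN7 and CLDN10, which had at most 6 counts in a library outside HG-OE replicate 3.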
